A study of Bos taurus with 4 samples.

Results

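Keratin transcripts were examined in the small intestine, the muscle and the cultured intestinal organoids of cattle, in 1 library per condition. The genes followed here were 10 keratins chosen by their symbol in the 4 count tables: the simple epithelial keratins KRT8, KRT18, KRT19, KRT20, KRT7, KRT23 and KRT80, and the basal and squamous keratins KRT5, KRT14 and KRT17. They are 10 of 55 keratin rows and of 29792 rows in all. Of the 10, 8 had more than 3 reads in at least 1 library, and KRT5 and KRT14 had no read in any of the 4. The question was whether the keratin set of the intestine was kept in culture and whether squamous keratins appeared there.

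All animals were Hanwoo cattle, a Korean breed of Bos taurus, healthy and older than 24 months. Crypts from the jejunum, the middle section of the small intestine, were embedded in Matrigel, a basement membrane gel, and grown in IntestiCult medium into intestinal organoids, which were collected at passage 5 (P5) and passage 10 (P10). The small intestine and the muscle were sequenced as tissue. Whether both passages came from the same culture or animal, and whether animals were pooled, is not given in the sources used here. Since each condition was 1 library, no difference has a replicate check, no p-value was computed, and every interval below covers counting error only.

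Keratins are the intermediate filament proteins of epithelial cells. A filament is built from pairs of a type I keratin (here KRT18, KRT19, KRT20, KRT23, KRT14 and KRT17) and a type II keratin (KRT8, KRT7, KRT80 and KRT5), so neither kind polymerises alone. In human and mouse intestine the single-layered epithelium is known for KRT8 as its main type II keratin with KRT18, KRT19 and KRT20 as its type I partners, and KRT20 is best known from the differentiated cells of the villus. KRT5 and KRT14 mark the basal layer of stratified squamous epithelia such as skin and oesophagus, and KRT17 appears in hair follicles, in basal cells and in wounded epidermis.

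The libraries held 12917720 to 17776273 reads, and the ribosomal RNA row RN18S1 took 4.08% of the intestine, 4.81% of the P5, 0.264% of the P10 and 23.6% of the muscle library. A count of 3 reads or fewer was taken as the floor of detection and given the value of 3 reads. Levels are given in CPM (a count scaled to a library total of 1000000 reads), and differences as log2 differences of quantile-normalised counts, in which the 4 libraries were given a common distribution of values. QuantSeq reads come from the 3′ end of a transcript, 1 region per molecule, so read numbers of different keratins are not scaled by transcript length. The muscle was skeletal muscle by its markers, with 45054 CPM summed over 9 skeletal muscle genes such as ACTA1 and TTN, against 3.60 CPM in intestine. The intestine was whole tissue: 7 smooth muscle genes summed to 2338 CPM there and to 12.6 and 7.56 CPM in P5 and P10 organoids, 6 stromal genes to 998 CPM against 3.68 and 0.282 CPM, and 5 immune genes to 415 CPM against 4.63 and 5.58 CPM. Genes of the mesothelium, which lines the gut wall and also makes simple keratins, were low throughout: 7 such genes summed to 9.45 CPM in intestine, 9.56 CPM in P5, 2.65 CPM in P10 and 2.94 CPM in muscle, and MSLN and UPK1B had no read. In bulk RNA, fewer cells of a type and less RNA per cell cannot be told apart.

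The 10 keratins together took 0.266% of all reads in intestine, 0.00236% in muscle, 1.10% in P5 and 0.936% in P10 organoids. Their summed level was 2664 CPM (95% Poisson interval 2640 to 2688) in intestine, 11037 CPM (10982 to 11093) in P5 organoids, 9362 CPM (9317 to 9407) in P10 organoids and 23.6 CPM (21.0 to 26.4) in muscle. Keratin RNA was thus a larger part of both organoid libraries than of the intestine. They were also nearly all the keratin RNA there was, at 99.8% of the reads of all 55 keratin rows in intestine, 99.9% in both organoid libraries and 93.0% in muscle. KRT8, KRT18, KRT19 and KRT20 alone made up 99.6% in intestine, 99.1% in P5 and 98.7% in P10 organoids.

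A list of 10 genes of the intestinal epithelium (EPCAM, CDH1, VIL1, CDX1, CDX2, CLDN7, ELF3, CDH17, LGALS4 and ESRP1) summed to 1064 CPM in intestine, 3213 CPM in P5 and 2436 CPM in P10 organoids, so this list was also higher in culture. Per read of that list, the 10 keratins had 2.50 reads (2.46 to 2.55) in intestine, 3.43 (3.40 to 3.47) in P5 organoids and 3.84 (3.80 to 3.88) in P10 organoids. Set against this summed list in the same library, keratin reads were still more frequent in both organoids than in intestine, by a smaller ratio than in CPM. This did not hold against each gene of the list. In CPM, CDH1, CDX1, CDX2 and ELF3 rose more than the summed keratins in both organoids, and LGALS4 and ESRP1 did so in P10 only. EPCAM, VIL1, CDH17 and CLDN7 rose less or fell.

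**Figure D1:**
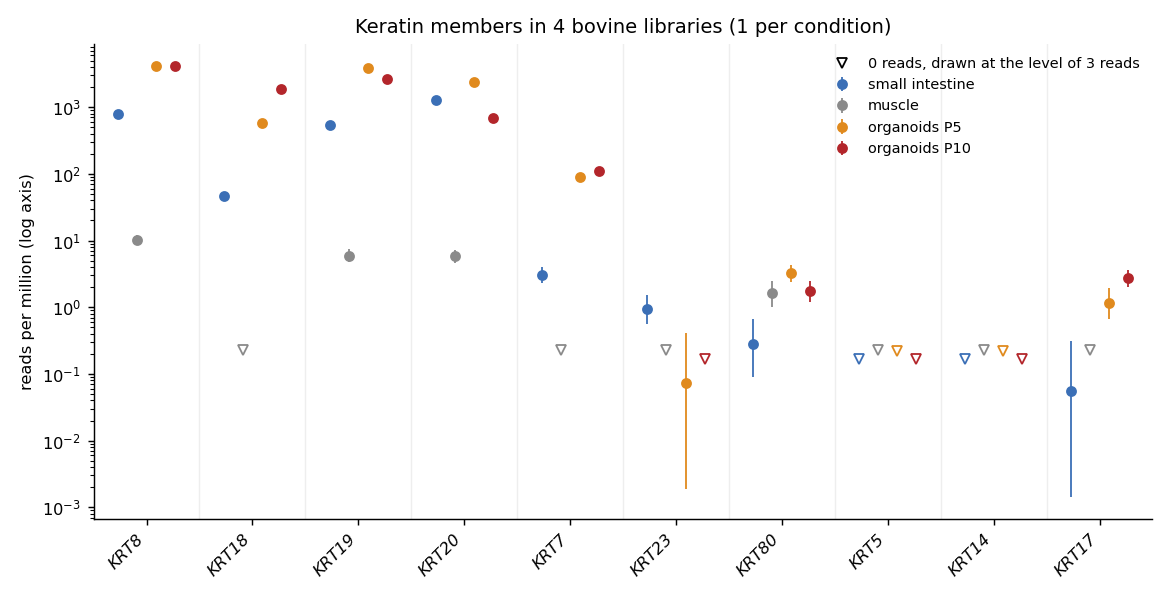
CPM (log axis) of the 10 keratins in the 4 libraries, with bars for the 95% Poisson interval of the count and open triangles for a library without a read, drawn at the level of 3 reads. KRT8, KRT18, KRT19 and KRT7 sit above intestine in both organoid libraries, KRT20 sits above it in P5 and below it in P10, and KRT5 and KRT14 have no read anywhere.

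With intestine as the reference, 7 of the 10 keratins were higher in P5 organoids by 2-fold or more and 1 was lower (KRT23), and the other 2 had no reads. Among all 19341 rows compared, 27.6% were higher and 18.8% lower by that measure. The median log2 difference was 3.07 over the 8 keratins with more than 3 reads in either library and 0.15 over all rows. In P10 organoids against intestine, 6 keratins were higher and 1 was lower (KRT20), while KRT23, without a read in P10, gave only a bound short of 2-fold, where 28.8% of 18991 rows were higher and 20.2% lower, and the median was 3.30 over the keratins and 0.08 over all rows. Both comparisons share the intestine library. Scaling moved the balance of all rows: of those at least 2-fold apart, 59.5% were higher in P5 organoids under quantile normalisation, 48.5% by library total and 42.1% by TMM, a trimmed-mean scaling. For P10 organoids these shares were 58.8%, 48.0% and 40.1%. By library total and by TMM, 6 keratins were higher in P5 organoids, since KRT20 fell within 2-fold. In P10 organoids the same 6 were higher under both, while the lower member was KRT23 by library total, and KRT20 and KRT23 were lower by TMM.

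KRT8, the type II partner shared by the simple epithelial type I keratins, was counted with 13892 reads (781 CPM) in intestine, 56690 (4168 CPM) in P5 organoids, 72376 (4082 CPM) in P10 organoids and 132 (10.2 CPM) in muscle. It was the most counted keratin of both organoid libraries and ranked 17 and 14 among all 22200 rows with a read there, against 127 in intestine. The log2 difference to intestine was 2.49 (95% counting interval 2.31 to 2.61) in P5 and 3.01 (2.82 to 3.05) in P10 organoids, and for P10 it was 2.38 by library total and 2.14 by TMM. Between the passages it was 0.52 (0.30 to 0.69) under quantile normalisation but -0.03 by library total and -0.10 by TMM, so the passages had no order in KRT8 that held under every scaling.

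KRT7 is a type II keratin of ducts, bladder and other glandular epithelia, and is low in normal human intestine. It had 55 reads (3.09 CPM, 2.33 to 4.03) in intestine, 1224 (90.0 CPM) in P5 organoids, 1957 (110 CPM) in P10 organoids and none in muscle. Both organoid libraries were far above the intestine, with log2 differences of 5.23 (4.799 to 5.68) in P5 and 5.50 (5.07 to 5.94) in P10, the largest quantile differences of the members with over 10 reads in both libraries of the pair. By library total KRT18 was ahead of KRT7 in P10, at 5.34 against 5.13. In the organoids it remained a small part of the type II reads: 2.11% (Wilson interval 1.998 to 2.23) in P5 and 2.63% (2.52 to 2.75) in P10, against 0.394% (0.303 to 0.513) in intestine. The passages were 0.27 apart (0.16 to 0.38) on the log2 scale.

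KRT80, a type II keratin found near desmosomes in many epithelia, was rare in every library, with 5 reads in intestine, 44 and 31 in P5 and P10 organoids and 21 in muscle. Its log2 difference to intestine was 4.25 (3.06 to 5.17) in P5 and 3.58 (2.37 to 4.50) in P10 organoids, and by library total the ratios were 11.5 (4.57 to 37.2) and 6.22 (2.40 to 20.5). It was the only member with more reads in muscle than in intestine. On the quantile scale the log2 difference of intestine and muscle was -4.33 (-5.41 to -2.93), or 20.1-fold lower in intestine, while the ratio by library total was 5.78-fold, since low counts in the muscle library took higher quantile values.

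Among the abundant type I keratins, KRT18 differed most between intestine and culture. As the usual partner of KRT8, it was counted with only 825 reads (46.4 CPM, 43.3 to 49.7) in intestine, then with 7790 (573 CPM, 560 to 586) in P5 organoids and 33299 (1878 CPM, 1858 to 1898) in P10 organoids, and with none in muscle. Its rank among all rows was 3316 in intestine, 198 in P5 and 52 in P10 organoids. The log2 difference to intestine was 3.56 (3.46 to 3.67) in P5 and 5.13 (5.02 to 5.23) in P10, and P10 lay above P5 by 1.56 (1.51 to 1.60). The 3 libraries therefore kept the order intestine, P5, P10 with intervals that did not overlap.

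KRT19, a type I keratin of simple and ductal epithelia that lacks most of the tail domain, had 9470 reads (533 CPM) in intestine, 52425 (3855 CPM) in P5 organoids, 46154 (2603 CPM) in P10 organoids and 77 (5.96 CPM) in muscle. It was higher than intestine in both organoids, by 2.76 (2.71 to 2.78) in P5 and 2.14 (2.09 to 2.17) in P10 on the log2 scale. P10 was below P5 by less than 2-fold, at -0.62 (-0.64 to -0.60).

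KRT20 was the keratin with the most reads in intestine and the one whose direction differed between the passages. It had 23086 reads (1299 CPM, 1282 to 1316) in intestine, 31917 (2347 CPM, 2321 to 2373) in P5 organoids, 12134 (684 CPM, 672 to 697) in P10 organoids and 75 (5.81 CPM) in muscle. P5 organoids lay above intestine by 1.19 (1.15 to 1.20) on the log2 scale and P10 organoids lay below it, at -1.17 (-1.22 to -1.14). By library total these were 0.85 and -0.92, of the same sign but within 2-fold. The P10 library was below the P5 library by more than 2-fold under every scaling, at -2.36 (-2.38 to -2.33) by quantiles and a ratio of 0.292 (0.286 to 0.298) by library total. Per read of the epithelial list, KRT20 was lower in both organoids than in tissue, with 1.22 reads (1.20 to 1.24) in intestine, 0.730 (0.720 to 0.741) in P5 and 0.281 (0.275 to 0.287) in P10.

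KRT23, a type I keratin, was the only member found mainly in tissue. It had 17 reads (0.956 CPM, 0.557 to 1.53) in intestine, 1 in P5 organoids and none in P10 organoids or muscle. The P5 library held 0.0769 times the intestine level by library total (0.00184 to 0.491), from 1 read, or was 4.34-fold lower with that read set to 3. Against the floor of 3 reads, P10 organoids were at least 5.65-fold lower by library total but at least 1.24-fold lower on the quantile scale, where 3 reads in P10 correspond to a higher value than 3 reads in intestine, so KRT23 was not counted among the members at least 2-fold lower in P10.

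**Figure D2:**
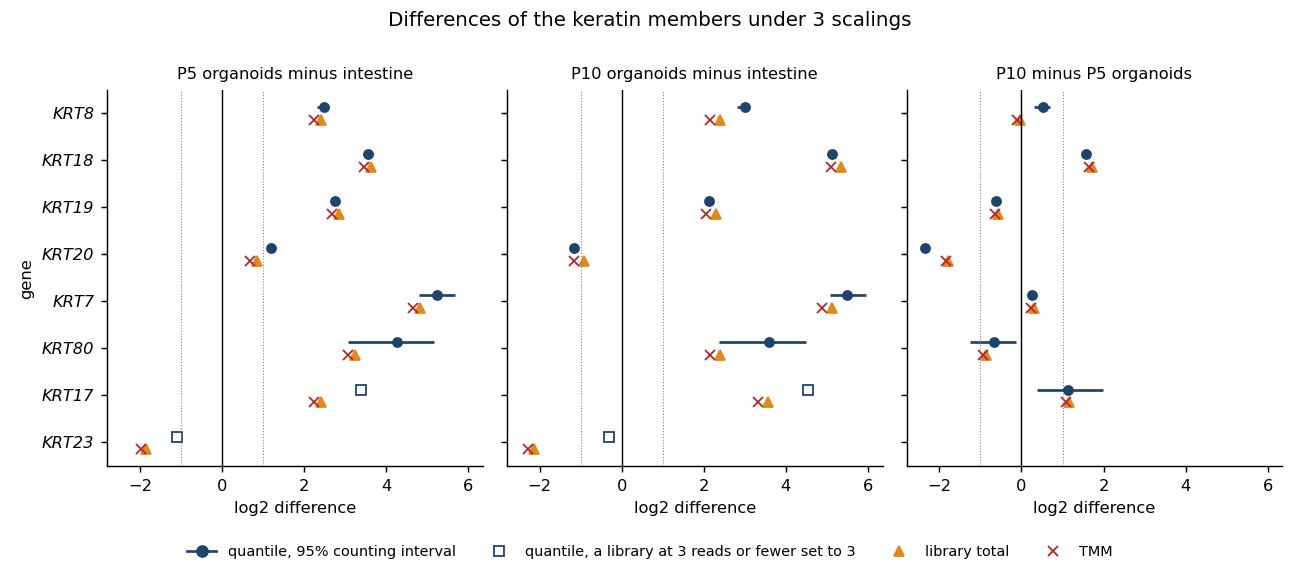
Log2 differences of the members with more than 3 reads in either library of a pair, for P5 organoids minus intestine, P10 organoids minus intestine and P10 minus P5 organoids, under quantile normalisation (circles with 95% counting intervals, open squares where a library had 3 reads or fewer), library totals (triangles) and TMM (crosses), with dotted lines at 2-fold. KRT20 sits right of 0 in P5 and left of it in P10 in each scaling, and for KRT8 in P10 minus P5 the scalings fall on both sides of 0.

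Between the passages, 2 keratins were at least 2-fold higher in P10 than in P5 organoids (KRT18 and KRT17), 1 was lower (KRT20) and 4 were within 2-fold, where 16.4% of 17798 rows were higher and 14% lower. The median log2 difference was 0.27 over these 7 keratins and 0.03 over all rows. Of all rows at least 2-fold apart, 53.9% were higher in P10 by quantiles, 46.2% by library total and 42.2% by TMM. KRT17 was 1.14 higher in P10 than in P5 on the log2 scale, from 48 against 16 reads. Its interval, from 0.39 to 1.99, reached under 2-fold. KRT80 was 0.67 lower in P10 than in P5 on the same scale, with an interval of the difference from -1.26 to -0.12.

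Ratios of read numbers within a library are not touched by scaling to library size, unlike quantile values, and they showed a shift in the make-up of the type I partners. KRT18 had 0.0594 reads per KRT8 read (0.0553 to 0.0637) in intestine, 0.137 (0.134 to 0.141) in P5 organoids and 0.460 (0.454 to 0.466) in P10 organoids. KRT20 had 1.66 reads per KRT8 read (1.63 to 1.70) in intestine, 0.563 (0.555 to 0.571) in P5 and 0.168 (0.164 to 0.171) in P10. KRT19 per KRT8 read changed less and without a steady direction, at 0.682 in intestine, 0.925 in P5 and 0.638 in P10. KRT18 and KRT20 thus moved in opposite ways against the same type II keratin from intestine over P5 to P10.

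As a share of the type I reads, KRT20 was 69.1% (68.6 to 69.6) in intestine, 34.6% (34.3 to 34.9) in P5 organoids and 13.2% (13.0 to 13.5) in P10 organoids. KRT19 was the leading type I keratin of both organoid libraries, at 56.9% (56.6 to 57.2) in P5 and 50.4% (50.04 to 50.7) in P10, against 28.4% (27.9 to 28.8) in intestine. KRT18 was 2.47% (2.31 to 2.64) in intestine, 8.45% (8.28 to 8.64) in P5 and 36.3% (36.0 to 36.7) in P10. The type II keratins made up 29.5% (29.1 to 29.9) of the reads of the 10 members in intestine, 38.6% (38.4 to 38.9) in P5 and 44.8% (44.6 to 45.04) in P10. The balance of type I and type II reads was closer to even in P10 organoids than in intestine. Reads with several alignments were counted, and read numbers were not corrected for how fully each gene was captured. The balance therefore describes reads and not molecules.

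**Figure D3:**
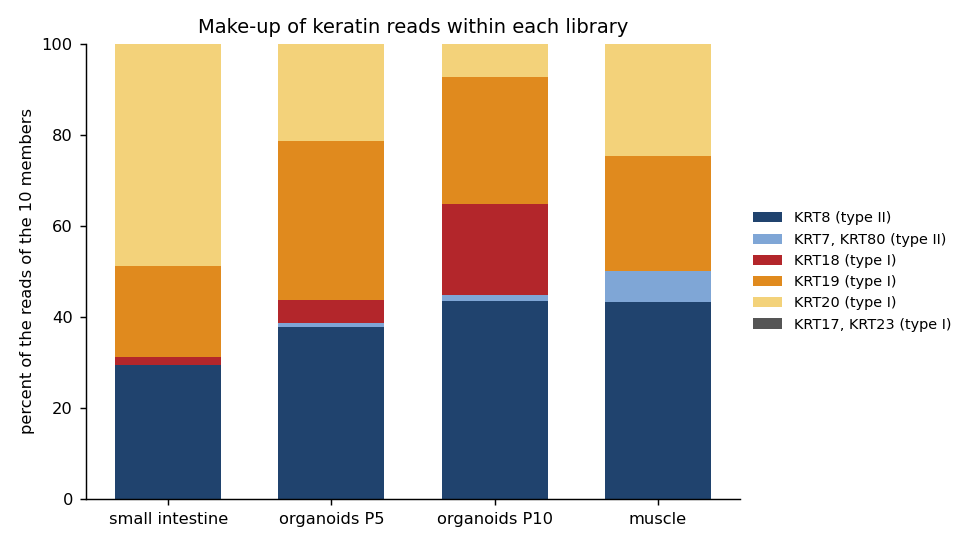
Percent of the reads of the 10 members taken by each keratin or group of keratins within each library, stacked from the type II to the type I keratins. The band of KRT20 narrows from 48.8% in intestine to 21.3% in P5 and 7.31% in P10 organoids, while that of KRT18 widens from 1.74% to 5.19% and 20.1%; the muscle bar rests on 305 reads.

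The genes whose 4 values were most like each keratin, by the Euclidean distance between centred log2 values over the 4 libraries and among 15051 rows with at least 50 reads in any library, are given as a description. For KRT18 the nearest was OLFM4, a marker of crypt base cells, at a distance of 0.74, with 1489 reads in intestine, none in muscle, 8151 in P5 and 34268 in P10 organoids, followed by LOC100295842 and GPX2, a glutathione peroxidase of the gut. Nearest to KRT20 were CYP2C87, LOC104975607 and TMEM54, at 0.50 to 0.56, and CYP2C87, a cytochrome P450 gene, had 2566 reads in intestine, 4723 in P5 and 1510 in P10 organoids. KRT8 had CEACAM19, LOC112449605 and NECTIN1 at 0.21 to 0.32, and KRT19 had FAM83F, SERPINB5 and RAB25 at 0.34 to 0.39. KRT7 stood farther from its neighbours C10H14orf1, GP2 and IQGAP3, at 0.72 to 1.06. These rows were picked for their likeness over the same 4 values, so their order over the libraries is no further result.

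A list of 6 proliferation genes (MKI67, TOP2A, PCNA, CCNB1, CDK1 and BIRC5) summed to 85.7 CPM in intestine, 465 CPM in P5 and 680 CPM in P10 organoids. All 6 were at least 2-fold higher in each organoid library than in intestine, where 27.6% of all rows were in P5 and 28.8% in P10. Between the passages all 6 were within 2-fold, with a median log2 difference of 0.79 for P10 minus P5. Of the epithelial list, 4 of 10 genes were at least 2-fold lower in P10 than in P5 (EPCAM, CDH17, CLDN7 and CDX2), where 14% of all rows were, and EPCAM, at 1041 and 578 CPM, was within 2-fold by library total. The other 6 were within 2-fold. Of these, CDX1 was higher in P10, at 147 against 76.5 CPM (log2 difference 0.95), ELF3, ESRP1 and LGALS4 were also higher in CPM, and CDH1 and VIL1 lower. The epithelial list thus did not move one way. These values were seen alongside the shift from KRT20 to KRT18, and their part in it was not tested.

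Squamous keratins were next asked for in culture. KRT5 and KRT14, the pair that defines basal squamous cells, had 0 reads in both organoid libraries. The 95% Poisson interval of 0 reads reaches up to 0.271 CPM in P5 and 0.208 CPM in P10, and the floor of 3 reads is 0.221 and 0.169 CPM. KRT17 had 1 read in intestine, 16 in P5 organoids (1.18 CPM, 0.672 to 1.91), 48 in P10 organoids (2.71 CPM, 1.996 to 3.59) and none in muscle. By library total it was 20.9 times the intestine level in P5 (3.25 to 877) and 48.1 times in P10 (8.23 to 1940), from 1 intestine read, or 6.97 and 16.0 times with that read set to the floor of 3, and P10 was 2.30 times P5 (1.28 to 4.34). The KRT17 row was therefore detectable and higher in culture, although its reads cannot be told apart from those of KRT42, as described below. It was 0.0107% of the reads of the 10 members in P5 and 0.0289% in P10.

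The KRT17 reads carry a limit of counting. In the RefSeq annotation of ARS-UCD2.0 the gene overlaps KRT42, a further type I keratin, the strand used in counting is not given in the sources used here, and reads with several alignments were counted. KRT42 had 1 read in intestine, 8 in P5 organoids and 25 in P10 organoids, so KRT17 had 2 reads per KRT42 read in P5 (0.81 to 5.40) and 1.92 in P10 (1.16 to 3.25). The rows moved together, and reads of the one and the other cannot be told apart here. Of the other keratins of stratified epithelia, KRT10 had 62 reads (4.56 CPM) in P5 and 95 (5.36 CPM) in P10 organoids, more than KRT17, against 46 (2.59 CPM) in intestine, and KRT9 had 11 reads in P5 only. KRT13, KRT16, KRT1, KRT4 and KRT6C had no read in any library. KRT6A, KRT6B, KRT2 and KRT77 had 2 reads each in P5 organoids only, and KRT15 had 1 read there. Whether the rows with 2 reads held the same reads, aligned more than once, was not tested.

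Of 18 genes of basal cells and squamous differentiation other than keratins, 15 had a row and 8 had more than 3 reads in some library. Against intestine, 5 of these 8 were higher in P5 organoids by 2-fold or more and none lower, with a median log2 difference of 3.02, and 6 were higher in P10 organoids and none lower, with a median of 2.16. The shares of all rows were 27.6% higher and 18.8% lower in P5 and 28.8% and 20.2% in P10, with medians of 0.15 and 0.08. TP63 passed in P10 on the quantile scale, from 23 against 17 reads. SBSN, also among these 8, had 9 reads in intestine (0.506 CPM) and none in either organoid library or muscle. Its log2 differences of -0.08 in P5 and 0 in P10 were bounds set by the floor of 3 reads. By library total that floor was 0.221 CPM in P5 and 0.169 CPM in P10, under the intestine level. The cornified envelope genes IVL and LOR, and TRIM29, LY6D, KRTDAP and CSTA, had no read in any of the 4 libraries. TP63, the master transcription factor of basal squamous cells, had 17 reads in intestine, 11 in P5 and 23 in P10 organoids, at 0.956, 0.809 and 1.30 CPM, while muscle had 1189 reads (92.0 CPM). Its CPM in the organoids was thus near that of intestine.

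S100A2, a calcium-binding protein, had 91 reads (5.12 CPM) in intestine, 2926 (215 CPM) in P5, 2102 (119 CPM) in P10 and 880 (68.1 CPM) in muscle. SFN, the 14-3-3 sigma protein, had 49, 419 and 192 reads in intestine, P5 and P10, at 2.76, 30.8 and 10.8 CPM. The desmosome plaque gene PKP1 had no read in intestine and 107 in each organoid library, at 7.87 and 6.03 CPM, and the desmosomal cadherin DSG3 had 17, 76 and 34 reads. DSG1, another desmosomal cadherin, was within 2-fold of intestine in both organoids, with 116, 86 and 64 reads. TGM1, a transglutaminase, had 0, 11 and 15 reads, and DSC3 had at most 3 in any library. Between the passages none of the 7 compared was at least 2-fold higher in P10, and DSG3 (-1.23) and SFN (-1.55) were lower on the log2 scale, the opposite direction to KRT17.

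**Figure D4:**
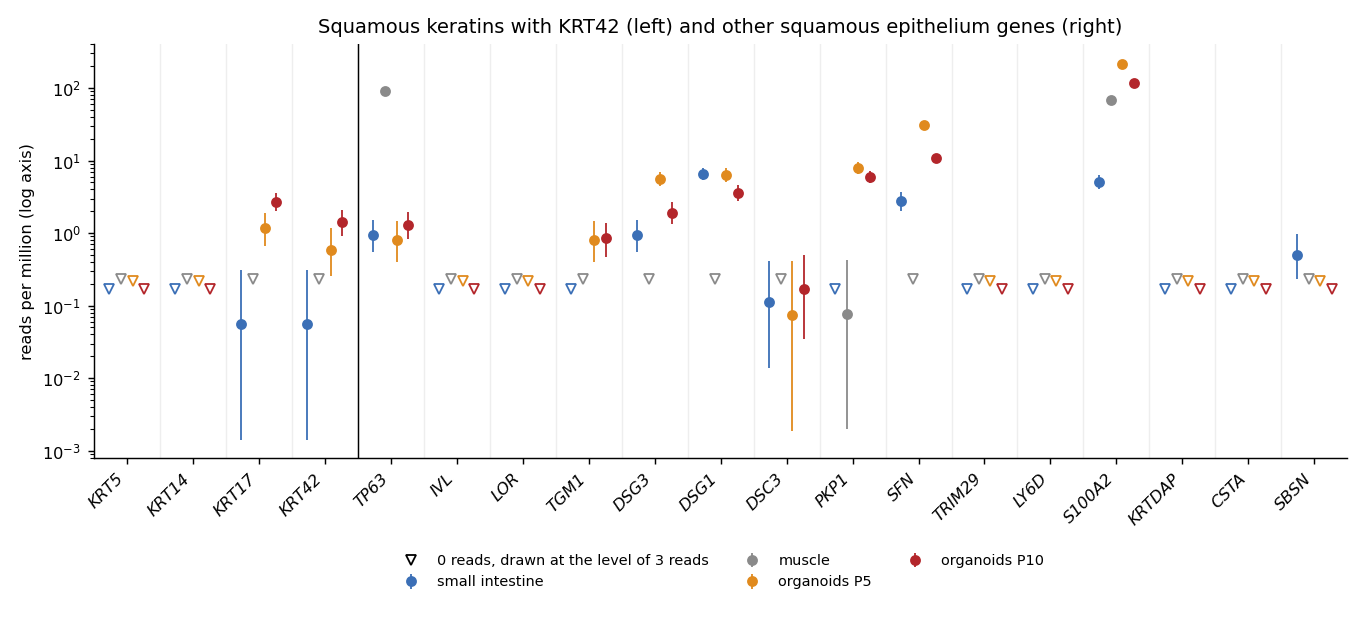
CPM (log axis) of the squamous keratins and KRT42 (left of the line) and of 15 other genes of squamous epithelium (right), with 95% Poisson intervals and open triangles at the level of 3 reads for a library without a read. KRT17 and KRT42 are above intestine in both organoids at under 3 CPM, S100A2 and SFN have the highest organoid levels, and the TP63 point that stands out is muscle at 92.0 CPM.

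The 45 keratin rows outside the 10 members summed to 5.91 CPM in intestine, 7.43 CPM in P5, 7.67 CPM in P10 and 1.78 CPM in muscle, and 29 of them had no read. Of the 5 with at least 10 reads in a library, KRT10, a type I keratin of suprabasal epidermis, had 46 reads in intestine, 62 in P5, 95 in P10 and 10 in muscle. Its log2 difference to intestine was 1.43 (0.87 to 1.99) in P5 and 1.60 (1.09 to 2.13) in P10, and by library total the ratios were 1.76 (1.18 to 2.64) and 2.07 (1.44 to 3.01). It was within 2-fold by TMM (0.63 in P5 and 0.79 in P10) and by upper quartile (0.66 and 0.78). In the RefSeq annotation KRT10 and KRT24 each overlap a long non-coding RNA gene, so their reads carry a like limit of counting. KRT24 and KRT222 were tissue rows, with 29 and 28 reads in intestine, 1 and 6 in P5 and 0 and 3 in P10, and KRT24 had 13 in muscle. KRT9 and KRT42 are given above. None of these approached the level of the 4 main simple keratins.

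Keratin filaments end at desmosomes, where linker proteins hold them. Of 14 genes for linkers and keratin partners, 6 were higher in P5 organoids by 2-fold or more, with intestine as the reference, and none lower, with a median log2 difference of 0.77, and 7 were higher and 1 lower in P10 organoids, with a median of 1.04. Of all rows 27.6% and 28.8% were higher and 18.8% and 20.2% lower, with medians of 0.15 and 0.08. The lower gene in P10 was PRKCE, at -1.20. The most abundant in culture were the cytolinker PLEC, the plaque proteins JUP (plakoglobin), DSP (desmoplakin) and PKP3 (plakophilin 3). JUP had 584 reads (32.9 CPM) in intestine, 2267 (167 CPM) in P5 and 3293 (186 CPM) in P10 organoids, with log2 differences of 2.17 and 2.32. PKP3 was higher by 2.38 and 1.60 and PLEC by 1.74 and 1.40. DSP, the main anchor of keratin filaments, was within 2-fold of intestine in both, at 0.75 and -0.12, so the linkers did not all follow the keratins.

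The other intermediate filament genes fell into nuclear lamins and non-epithelial types. Of 9 compared, 3 were higher and 4 lower by 2-fold or more in P5 organoids, again relative to intestine, and of 10 compared, 4 were higher and 4 lower in P10 organoids, where 27.6% of all rows were higher and 18.8% lower in P5 and 28.8% and 20.2% in P10. VIM, the vimentin of mesenchymal cells, had 3242 reads in intestine, 11 in P5 and none in P10 organoids, and DES, the desmin of muscle cells, had 6449 reads in intestine and none in either organoid library. LMNB1, a lamin of the nuclear envelope, was higher by 2.09 in P5 and 2.39 in P10 on the log2 scale, with 216, 724 and 1223 reads. NES (nestin) had 44 reads in intestine, 28 in P5 and 367 in P10 organoids. In the organoids keratins were therefore far ahead of vimentin and desmin in read number.

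Against muscle, 5 keratins were at least 2-fold higher in intestine, and 1 was lower (KRT80), where 24.7% of 18950 rows were higher and 28.1% lower. Of all rows at least 2-fold apart, 46.8% were higher in intestine by quantiles but 81.6% by library total, which placed the median of all rows at 1.10 in place of 0 on the log2 scale. The log2 difference of intestine and muscle was 5.15 (4.93 to 5.38) for KRT8, 5.29 (4.97 to 5.61) for KRT19 and 6.63 (6.32 to 6.96) for KRT20. By library total these were 6.25, 6.47 and 7.79. KRT18 was at least 84.0-fold higher and KRT7 at least 3.74-fold higher in intestine, against 3 reads in muscle on the quantile scale, and at least 199.8-fold and 13.3-fold by library total. KRT23, with 17 reads against none, was at least 1.06-fold higher by quantiles and at least 4.12-fold by library total. In P5 and in P10 organoids against muscle, 6 members were at least 2-fold higher and none was lower, where 28.6% and 31.5% of all rows were higher and 28% and 28.5% lower. By library total, 75.7% and 73.4% of the rows at least 2-fold apart were higher in the organoids, against 50.6% and 52.5% by quantiles. KRT80 had no direction against muscle that held under each scaling: the log2 differences were -0.07 (-0.87 to 0.84) and -0.74 (-1.58 to 0.17) by quantiles, and the ratios by library total 1.99 (1.16 to 3.52) and 1.08 (0.599 to 1.97).

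The muscle library still held 305 keratin reads. KRT8, KRT19 and KRT20 had 0.9502%, 0.813% and 0.325% of their intestine read numbers there, and KRT18 had none, with at most 0.0283 reads per KRT8 read. That limit lies under the KRT18 ratio in each of the other libraries. KRT20 had 0.568 reads per KRT8 read in muscle (0.422 to 0.760), against 1.66 in intestine and 0.563 in P5 organoids, and KRT19 had 0.583 (0.435 to 0.778), an interval that holds the 0.682 of intestine and the 0.638 of P10 organoids. Of the epithelial list, muscle held 612 reads against 18920 in intestine (3.23%), with LGALS4 at 6.96%, CDH17 at 4.35%, EPCAM at 0.978% and VIL1 at 0. The part of epithelial cells in these reads was not tested.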

How the data were processed

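RNA of 4 bovine samples (small intestine, muscle, P5 and P10 organoids; 1 library each, 500 ng total RNA) had been sequenced with the QuantSeq 3′ kit. The authors deposited whole-number read counts per gene symbol, without normalisation, made from Bowtie2 alignments with the coverage command of Bedtools, multiple alignments included. The assembly is not given in the sources used here, so no coordinates are printed, and RefSeq (ARS-UCD2.0) served only for names and neighbours, with all 55 keratin rows matched by symbol. Its table holds no gene descriptions, so keratins listed under LOC symbols could not be searched for. Library totals were 12917720 to 17776273 reads.

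The keratins and gene lists were chosen with earlier results of these data known. Quantile normalisation over the 4 libraries was applied to the 22200 rows that had any read, and log2(value + 1) was taken. A fold is on that scale, and for low genes it could lie above or below the fold by library total. For KRT80 in intestine against muscle it was 20.1 against 5.78, and for KRT23 in P10 organoids against intestine 1.24 against 5.65. A row was compared where either library had more than 3 reads, and counted as higher or lower past 2-fold. Counts of 3 or fewer took the value of 3 reads, a bound that then pointed the wrong way was set to 0, and no fold was given where both were at or under 3. Intervals (95%) were exact Poisson bounds, mapped through each library's quantile curve and combined for differences, exact conditional bounds for ratios and Wilson bounds for shares. Reads carry no molecular identifiers, so intervals and floors cover counting error only.

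Genes named were the 10 members, other keratins with at least 10 reads in a library, listed genes by their level in the organoids (for the squamous list, those with at least 10 reads), and the 3 nearest rows of each member with at least 50 reads. The stratified keratins near 0 and the listed genes past 2-fold between passages were named after their values were seen. So were CDH17, LGALS4, EPCAM, VIL1, CDX1, CDH1, ELF3, ESRP1, PRKCE, SBSN, VIM, DES and NES. Alternatives were library totals (with and without RN18S1), edgeR's TMM and upper quartile, pseudocounts of 0.1 and 5, filters of 10 reads, no floor, rows summed by symbol (1805 share one) and, chosen after seeing the data, quantiles without muscle. The calculations were tested on simulated data. The scalings were made in R 4.3.3 with limma 3.58.1 and edgeR 4.0.16, the intervals with scipy 1.17.1, and the tables and plots with pandas 2.3.3, matplotlib 3.10.9 and numpy 2.4.6 under Python 3.11.15.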

Additional observations from a re-analysis of the deposited data

Results flagged for a closer look

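KRT20 moved in opposite directions in the organoid passages. Its log2 difference to intestine was 1.19 in P5 organoids and -1.17 in P10 organoids, from 31917 and 12134 reads against 23086 in intestine, and the difference between the passages was not tested across samples because each passage was 1 library. The signs were the same under every alternative run, and by library total both values were within 2-fold (0.85 and -0.92).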

How the results depend on the processing

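The 44 log2 differences of the 10 keratins, those of organoids and muscle included, were recomputed under the alternatives, which gave 437 values. The sign was the same in 428, 2 were 0 (KRT23), and the other sign was met in 7. Of these, 3 were KRT80 in organoids minus muscle (0.97 in P5 and 0.10 in P10 by library total, and 0.66 in P5 without RN18S1), and 4 were KRT8 in P10 minus P5 organoids (0.52 by quantiles; -0.03 by library total, -0.10 by TMM, -0.14 by upper quartile and -0.10 by library total without RN18S1). In 19 the value crossed 2-fold: KRT20 in P5 minus intestine under those scalings (0.85, 0.68, 0.71 and 0.86), KRT20 in P10 minus intestine by library total (-0.92) and without RN18S1 (-0.98), KRT17 in P5 minus muscle by upper quartile (0.93), KRT80 in P10 minus muscle by TMM (-1.12) and upper quartile (-1.29), and 10 values of KRT23, a gene with at most 17 reads. With at least 10 reads required in every library, fewer members were left to compare. The higher members were then 3 in P5 minus intestine, 2 in P10 minus intestine, 0 in P10 minus P5 and 3 in intestine minus muscle, and the lower were 0 in P5 minus intestine and 0 in intestine minus muscle. The lower count in P5 minus intestine was also 0 with a pseudocount of 5 and with at least 10 reads in any library, and in P10 minus intestine it was 2 (KRT20 and KRT23) with TMM, upper quartile and no floor.

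The summed level of the 10 members was 2402 CPM with TMM, 2329 with upper quartile, 2777 without RN18S1 and 2613 under the filter of 10 reads in every library, in intestine. It was 43.0, 46.6 and 30.9 CPM in muscle under the first 3 of these, 8833, 8724, 11595 and 10370 CPM in P5 organoids under all 4, and 7126, 6860 and 7369 CPM in P10 organoids with TMM, upper quartile and the filter. The squamous keratin sum in P10 was 1.98 CPM with upper quartile, and the filter left none of these rows. Leaving muscle out of the quantile normalisation crossed no 2-fold threshold of a member. No paired analysis was possible because each condition has 1 library. Depth limits KRT23, KRT80 and KRT17, whose counts were at most 48. It also limits KRT5 and KRT14, whose absence from the counts only bounds their counted level, at 0.271 CPM in P5 and 0.208 CPM in P10 organoids. No library had a read in either row, so how fully these rows capture their transcripts could not be checked.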
